A study of Mus musculus with 6 samples.

Results

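MHC class I antigen presentation was followed through 10 genes in mouse stem-like medulloblastoma cells: the heavy chain genes H2-K1, H2-D1 and H2-T23, B2m, Tap1, Tap2, Tapbp, Psmb8, Psmb9 and Nlrc5. They were found by gene symbol, with 1 transcript row kept per symbol, and are 10 of 24063 symbols. All 10 were found. These cells derive from a tumour of the cerebellum. Every group carried Math1-Cre; SmoM2, in which Cre under the Math1 (Atoh1) promoter switches on an active form of the Hedgehog transducer Smoothened. The cells had a CRISPR guide named for the yeast protein Gal4 (sgGal4-4, labelled WT) or 1 of 2 guides, sgMiat-6 and sgMiat-96, named for Miat, a long noncoding RNA, and labelled Miat knockdown, with 2 RNA-seq libraries per group and 6 in all. The labels give no age, strain, MHC haplotype or culture conditions, and do not say whether the 2 libraries of a group came from separate cultures. The p-values therefore measure the spread between these libraries, which may be technical.

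MHC class I molecules show peptides from a cell's own proteins to CD8 T cells and are also read by natural killer cells. Proteins are cut by the proteasome, and interferon-gamma exchanges its catalytic subunits for those of the immunoproteasome. The peptides are pumped into the endoplasmic reticulum by the transporter TAP, and tapasin helps to load them onto a heavy chain paired with beta-2 microglobulin. Nlrc5 is the transactivator of class I promoters. Neural cells are known for low class I levels.

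Of the genes, 8 lie on mouse chromosome 17, where the MHC is found (coordinates from GENCODE M21 on GRCm38). H2-K1 is at chr17:33996017-34000347, Psmb9 at chr17:34181987-34187764, Tap1 at chr17:34187553-34197225, Psmb8 at chr17:34197721-34201454, Tap2 at chr17:34203527-34216321, H2-D1 at chr17:35262730-35267499, H2-T23 at chr17:36029773-36032855 and Tapbp at chr17:33915899-33929292. B2m is at chr2:122147686-122153083 and Nlrc5 at chr8:94434356-94527272. Psmb9 and Tap1 run in opposite directions, and their RefSeq start sites are 226 bases apart. In GENCODE the annotated genes overlap by 212 bases. B2m, H2-T23, Nlrc5, Psmb8, Tap2 and Tapbp also overlap an annotated gene on the opposite strand. Whether the libraries kept strand is not stated, and without it the reads of such pairs cannot be told apart. On the same strand, Tapbp overlaps Zbtb22 by 3422 bases and Nlrc5 overlaps Mir7072 by 60 bases. Strand alone would not separate reads in those overlaps.

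The 3 heavy chain genes resemble each other, which limits how their reads can be assigned. H2-K1 and H2-D1 are identical at 91.5% of aligned coding bases, H2-K1 and H2-T23 at 82.2%. A stretch of 181 coding bases in the exon for the membrane-proximal domain is shown here because it is nearly the same in all 3 genes. Capitals mark letters that differ from H2-K1, which number 4 in H2-D1 and 4 in H2-T23 (97.8% identical). The stretches are at chr17:33997298-33997478 (minus strand), chr17:35265866-35266046 (plus strand) and chr17:36030835-36031015 (minus strand).
H2-K1: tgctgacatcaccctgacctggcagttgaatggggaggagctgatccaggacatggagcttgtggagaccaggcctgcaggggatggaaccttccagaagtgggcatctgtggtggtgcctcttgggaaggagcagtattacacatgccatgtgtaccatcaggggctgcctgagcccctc
H2-D1: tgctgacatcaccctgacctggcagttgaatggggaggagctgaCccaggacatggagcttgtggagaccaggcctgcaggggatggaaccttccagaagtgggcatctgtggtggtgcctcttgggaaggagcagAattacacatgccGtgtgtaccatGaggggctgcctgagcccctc
H2-T23: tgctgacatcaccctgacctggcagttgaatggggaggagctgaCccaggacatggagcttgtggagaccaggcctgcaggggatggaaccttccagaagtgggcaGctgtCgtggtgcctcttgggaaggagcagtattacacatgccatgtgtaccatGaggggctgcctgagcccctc
Of all stretches of 50 bases in the transcript, 8.79% in H2-K1, 14.3% in H2-D1 and 28.8% in H2-T23 also stood in a transcript of another gene. The share was 0 in B2m, Psmb8, Psmb9 and Nlrc5, 0.861% in Tap1, 0.737% in Tap2 and 2% in Tapbp. H2-K1 had 0 such stretches of 100 bases. Values of the H2 genes are uncertain where reads were shared, and also because the labels do not give the strain or MHC haplotype of the cells, whose alleles may differ from the reference.

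Upstream sequence is shown for H2-K1, which had the largest fold change of the 3 heavy chain genes H2-K1, H2-D1 and H2-T23, and for B2m, the light chain it pairs with. The windows come from RefSeq's promoter table (build GRCm38.p6), which held 8 of the 10 genes. They span chr17:34000348-34000597 (minus strand) and chr2:122147437-122147685 (plus strand), read 5′ to 3′ towards the start site. Capitals mark matches, on either strand, to GGGG followed after any 3 bases by CCCC (kappaB-like), GAAA followed after any 2 bases by GAAA (like an interferon-stimulated response element, ISRE), TGACG (a CRE core) and CCAAT (a Y box core, written ATTGG where it lies on the other strand).
H2-K1: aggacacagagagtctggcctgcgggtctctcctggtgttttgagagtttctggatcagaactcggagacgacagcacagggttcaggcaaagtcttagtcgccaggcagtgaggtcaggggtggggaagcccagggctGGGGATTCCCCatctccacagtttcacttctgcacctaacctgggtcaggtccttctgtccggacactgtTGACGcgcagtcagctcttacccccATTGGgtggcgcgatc
B2m: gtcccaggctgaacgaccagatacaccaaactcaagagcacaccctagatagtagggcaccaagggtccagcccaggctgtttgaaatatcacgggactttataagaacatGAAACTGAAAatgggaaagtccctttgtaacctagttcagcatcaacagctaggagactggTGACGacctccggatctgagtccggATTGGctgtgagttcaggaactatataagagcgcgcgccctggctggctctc
The kappaB-like letters stood in 287 of 32851 windows of 250 bases before a start site (0.874%), those of H2-K1 and H2-D1 among them. This pattern was written after the H2-K1 and H2-D1 windows had been seen. The windows are set by RefSeq's start sites, and all 250 bases of that of H2-D1 lie in a UTR annotated by GENCODE, inside the gene as placed above. The windows of Tapbp, Psmb8 and Psmb9 also lie wholly inside the gene as placed above, and those of H2-T23 and Tap1 in part. For these genes the overlap with annotated UTRs was not checked.
The ISRE-like letters stood in 2.98% of windows, among them those of B2m and H2-T23. A GAS-like motif, TTC and GAA with any 3 bases between them, stood in 7.02%, among them that of Psmb8. The CRE core stood in 17.8% of windows and the Y box core in 33.8%. The CRE core was in the windows of B2m, H2-K1, H2-D1, Tap1 and Psmb9, and the Y box core in those of the same 5 genes, Tapbp and H2-T23. These matches describe letters and not binding. Only these exact letters were sought, so a window without a match, such as those of H2-K1 and H2-D1 for the ISRE-like letters, may still hold a variant.

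The libraries held between 18438891 and 19650274 counts in the rows kept. Miat, the targeted gene (chr5:112213228-112229395), had 140 and 139 counts in the control libraries and 0 in all 4 Miat libraries, at least 94.5-fold lower (sgMiat-6) and at least 83.4-fold lower (sgMiat-96) when 3 counts per group are taken as the floor. Atoh1, whose promoter drives the Cre, was at 0 counts in all 6 libraries. Of 13220 genes tested with edgeR's quasi-likelihood test, 66.5% were called with both Miat guides together (Benjamini-Hochberg adjusted p under 0.05), so that a change was common. In bulk RNA, fewer cells of a type and less RNA per cell cannot be told apart. Of 17 microglia and macrophage markers, 6 were at 0 in every library (Cx3cr1, Tyrobp, C1qa, C1qb, C1qc and Trem2). Their summed level was 4.61 and 5.46 CPM in the controls, 2.38 and 5.05 CPM with sgMiat-6 and 5.85 and 7.503 CPM with sgMiat-96. The 11 T and B lymphocyte markers summed to 0.346 to 0.715 CPM in every library. Endothelial markers summed to at most 14.5 CPM and fibroblast markers to at most 10.9 CPM in any library. The 8 neural stem cell markers summed to between 4512 and 7928 CPM and the 14 granule neuron progenitor markers to between 154 and 228 CPM, higher in all 4 Miat libraries for both lists. The 9 astrocyte markers summed to 3323 and 3434 CPM in the controls and to 1056 to 1181 CPM in the Miat libraries, and the part of these markers in the results was not tested.

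The class I genes did not move as a block. H2-K1 went from near absence in the controls to several CPM, and Tap1, Psmb9, H2-T23, H2-D1 and Tap2 rose with the mean of both Miat guides. Tapbp and Nlrc5 fell, and B2m, the most abundant of the genes, did not pass the test. Psmb8 was too low to be tested. Thus 8 of 9 tested members were called, 6 higher and 2 lower, beside the background of 66.5%, of which 33.1% were higher and 33.4% lower. The median log2 fold change was 0.61 over the 9 tested members and 0.00 over all tested genes. In TMM-scaled CPM, all 4 Miat libraries lay above both controls for 6 of the 10 genes, below them for 2, and overlapped them for 2, while 67.0% of tested genes had no overlap. The 6 include Psmb8, which is not among the tested genes. It had 0 counts in both controls and 1 count in 1 library of each guide.

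**Figure D1:**
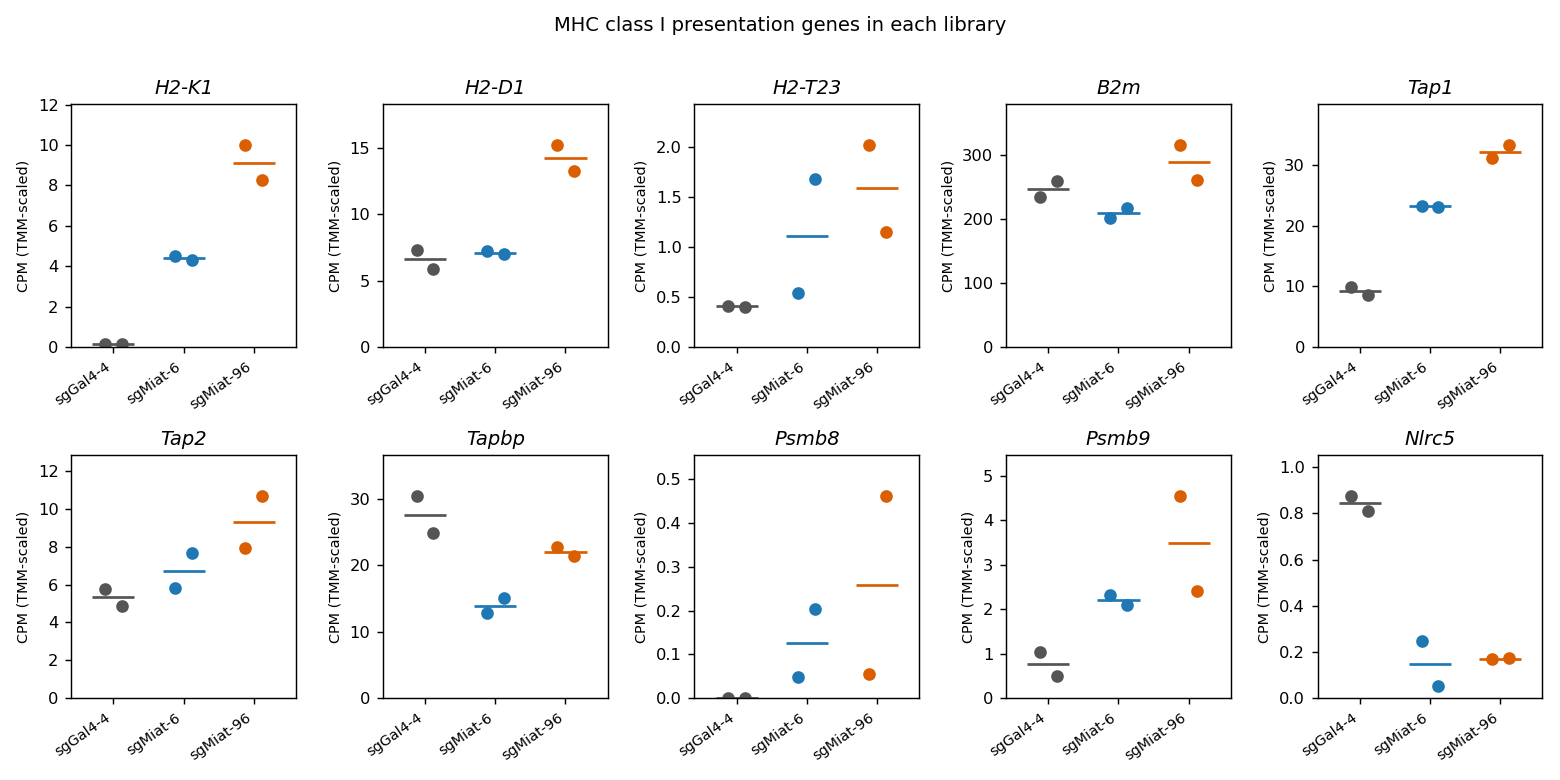
Level of the 10 class I presentation genes in each of the 6 libraries, as CPM scaled by TMM on a linear axis from 0; points are libraries and bars are group means. H2-K1 was at 0.155 and 0.152 CPM in the controls and between 4.34 and 10.01 CPM in the Miat libraries, whereas B2m and H2-D1 overlapped between control and Miat libraries.

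H2-K1 encodes the classical heavy chain K. It had 3 counts in each control library, 91 and 85 with sgMiat-6, and 178 and 143 with sgMiat-96, or 0.155 and 0.152, 4.51 and 4.34, and 10.01 and 8.25 CPM. The 3 groups did not overlap, as was common among tested genes (79.2% for sgMiat-6 and 86.5% for sgMiat-96 against the controls), and the control was at the limit of what these libraries could show. The mean was 0.153 ± 0.0018 CPM in the controls, against 4.43 ± 0.123 CPM (sgMiat-6) and 9.13 ± 1.24 CPM (sgMiat-96), with the SD over n = 2. H2-K1 rose by a log2 fold change of 4.79 ± 0.38 (SE) with sgMiat-6 (adjusted p = 3.85e-07) and of 5.84 ± 0.36 with sgMiat-96 (adjusted p = 2.67e-08, edgeR's quasi-likelihood test, Benjamini-Hochberg). As a ratio of counts, which is not touched by the prior count of the fit, this was 28.9 (95% counting interval 13.0 to 79.8) and 59.6 (27.1 to 164). The call held in all 15 alternative settings tried for each guide.

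H2-D1 encodes the classical heavy chain D. Its libraries had 142 and 117 counts in the controls, 146 and 137 with sgMiat-6, and 271 and 230 with sgMiat-96, or 7.32 and 5.93, 7.24 and 6.99, and 15.2 and 13.3 CPM. The sgMiat-6 libraries lay between the controls, and the sgMiat-96 libraries lay above all others. With sgMiat-96 the log2 fold change was 1.11 ± 0.18 (adjusted p = 0.000136), with sgMiat-6 it was 0.10 ± 0.19 (adjusted p = 0.663), and with both guides together 0.61 ± 0.16 (adjusted p = 0.0053, edgeR, Benjamini-Hochberg). Without sgGal4-4 replicate 2 the value for both guides was 0.46 (adjusted p = 0.123), and after a trend over transcript length had been taken out 0.35 (adjusted p = 0.0604).

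H2-T23 encodes Qa-1, a nonclassical heavy chain that presents leader peptides of other class I chains. It was low, at 8 and 8 counts in the controls, 11 and 33 with sgMiat-6, and 36 and 20 with sgMiat-96, or 0.412 and 0.405, 0.545 and 1.68, and 2.02 and 1.15 CPM. All Miat libraries lay above the controls, but the libraries of a guide differed widely and the guides overlapped. The log2 fold change was 1.69 ± 0.53 with both guides (adjusted p = 0.0134), 1.94 ± 0.58 with sgMiat-96 (adjusted p = 0.00964) and 1.43 ± 0.60 with sgMiat-6 (adjusted p = 0.0629, edgeR, Benjamini-Hochberg). Single libraries decided these calls. Without sgMiat-6 replicate 2 the value for both guides was 1.16 (adjusted p = 0.0828) and the sgMiat-6 value 0.40 (adjusted p = 0.678), whereas without sgMiat-6 replicate 1 the sgMiat-6 value was 2.03 (adjusted p = 0.0116). Without sgMiat-96 replicate 1 the value for both guides was 1.46 (adjusted p = 0.0606) and the sgMiat-96 value 1.49 (adjusted p = 0.12).

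B2m encodes beta-2 microglobulin, the light chain without which most class I chains do not reach the surface. Its libraries had 234 and 259 CPM in the controls, 201 and 217 CPM with sgMiat-6, and 315 and 261 CPM with sgMiat-96. The sgMiat-6 libraries were the lowest and the sgMiat-96 libraries the highest, on either side of the controls, and the sgMiat-96 library at 261 CPM lay close to the higher control. B2m was not called with either guide, with log2 fold changes of -0.24 ± 0.12 with sgMiat-6 (adjusted p = 0.0963), 0.22 ± 0.11 with sgMiat-96 (adjusted p = 0.101) and -0.01 ± 0.10 with both (adjusted p = 0.947, edgeR, Benjamini-Hochberg). Its direction with sgMiat-96 depended on the scaling, while with sgMiat-6 the value was negative in all 15 alternatives (-0.49 to -0.17). In deposited TPM the log2 ratio of group means was -0.46 with sgMiat-6 and -0.31 with sgMiat-96, and with the length trend removed the log2 fold change was -0.49 (adjusted p = 0.000216) and -0.46 (adjusted p = 0.00027). No direction is given for B2m with sgMiat-96 or both guides for that reason, nor with sgMiat-6, where the main fit did not call it.

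Tap1 and Tap2 encode the subunits of the peptide transporter. Tap1 had 191 and 171 counts in the controls, 469 and 453 with sgMiat-6, and 553 and 577 with sgMiat-96, or 9.84 and 8.66, 23.3 and 23.1, and 31.1 and 33.3 CPM. The 3 groups did not overlap and replicates lay close together. Tap1 rose with sgMiat-6 (log2 fold change 1.33 ± 0.14, adjusted p = 7.14e-06) and with sgMiat-96 (1.80 ± 0.14, adjusted p = 2.75e-07, edgeR, Benjamini-Hochberg), and kept its call in all 15 alternative settings for each guide. Tap2 had 5.77 and 4.86 CPM in the controls, 5.80 and 7.66 CPM with sgMiat-6, and 7.93 and 10.7 CPM with sgMiat-96. The lowest sgMiat-6 library was almost level with the higher control, and the sgMiat-96 libraries were the highest. Tap2 rose with sgMiat-96 (0.81 ± 0.22, adjusted p = 0.00601), and its sgMiat-6 value was 0.34 ± 0.23 (adjusted p = 0.225). Without sgMiat-96 replicate 2 the sgMiat-96 value was 0.58 (adjusted p = 0.0759). The 2 guides together gave 0.57 ± 0.20 (adjusted p = 0.0213), which missed the threshold under 5 of 14 alternatives, with an adjusted p of up to 0.171. The ratio of Tap1 to Tap2 per length was 1.44 and 1.50 in the controls and between 2.55 and 3.38 in the Miat libraries.

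Tapbp encodes tapasin, the chaperone that bridges TAP and the heavy chain. It had 590 and 489 counts in the controls, 257 and 295 with sgMiat-6, and 404 and 369 with sgMiat-96, or 30.4 and 24.8, 12.7 and 15.1, and 22.7 and 21.3 CPM. All 4 Miat libraries lay below the controls, with sgMiat-6 the lowest. Tapbp fell by 0.99 ± 0.16 on the log2 scale with sgMiat-6 (adjusted p = 0.000157) and by 0.66 ± 0.13 with both guides (adjusted p = 0.000592), while the sgMiat-96 value was -0.33 ± 0.15 (adjusted p = 0.0723, edgeR, Benjamini-Hochberg). The sgMiat-96 value passed the threshold in 4 of 15 alternatives, for example at -0.53 (adjusted p = 0.00698) with scaling by total counts.

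Psmb9 (LMP2) and Psmb8 (LMP7) encode catalytic subunits of the immunoproteasome. Psmb9 had 20 and 10 counts in the controls, 47 and 41 with sgMiat-6, and 81 and 42 with sgMiat-96, or 1.03 and 0.507, 2.33 and 2.09, and 4.55 and 2.42 CPM. Every Miat library lay above both controls. Psmb9 rose by a log2 fold change of 1.52 ± 0.44 with sgMiat-6 (adjusted p = 0.0102) and of 2.18 ± 0.42 with sgMiat-96 (adjusted p = 0.000477, edgeR, Benjamini-Hochberg). The control libraries differed from each other, and without sgGal4-4 replicate 2 the sgMiat-6 value was 1.10 (adjusted p = 0.0824), without sgGal4-4 replicate 1 it was 2.11 and the sgMiat-96 value 2.77. With the length trend removed the sgMiat-96 value was 1.47. Psmb8 had 0 counts in both controls, 1 and 4 with sgMiat-6 and 1 and 8 with sgMiat-96, too few for the filter on low counts. With the controls put at 3 counts in all, the ratio of scaled counts was 1.64 with sgMiat-6 and 3.34 with sgMiat-96. At so few counts these ratios do not set a lower limit on a rise. With no filter on low counts the adjusted p of Psmb8 was 0.188 and 0.0614 (edgeR, Benjamini-Hochberg).

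The constitutive subunit that Psmb9 replaces is Psmb6. The ratio of Psmb9 to Psmb6 per length was 0.00864 and 0.00451 in the controls, 0.0178 and 0.0136 with sgMiat-6, and 0.0214 and 0.0132 with sgMiat-96, so that Psmb9 stayed far below its counterpart in every library. For Psmb8 and its counterpart Psmb5 the ratio was 0 in the controls and at most 0.0019 in the Miat libraries.

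Nlrc5, the transactivator, was low in every library and lower in the Miat libraries, unlike H2-K1 and Tap1. It had 17 and 16 counts in the controls, 5 and 1 with sgMiat-6, and 3 and 3 with sgMiat-96, or 0.876 and 0.811, 0.248 and 0.051, and 0.169 and 0.173 CPM. All Miat libraries lay below the controls and at or near the 0.149 to 0.173 CPM that 3 counts made up. Nlrc5 fell by 2.43 ± 0.67 on the log2 scale with sgMiat-6 (adjusted p = 0.0084) and by 2.26 ± 0.68 with sgMiat-96 (adjusted p = 0.00966, edgeR, Benjamini-Hochberg). As a ratio of counts to the controls this was 0.179 (95% counting interval 0.0613 to 0.433) and 0.203 (0.0694 to 0.49). For both guides together the log2 fold change was -2.35 ± 0.55 (adjusted p = 0.00215), was called in all 14 alternatives and was -3.07 without sgMiat-6 replicate 1, where the sgMiat-6 value was -3.88. For single guides the call was lost under 3 alternatives with sgMiat-6 and 5 with sgMiat-96, among them leaving out sgGal4-4 replicate 1 (adjusted p = 0.0582 and 0.0618), sgMiat-6 replicate 2 (log2 fold change -1.75, adjusted p = 0.0851), and sgMiat-96 replicate 1 or 2 (adjusted p = 0.0622 and 0.0546). DESeq2 did not call it for either guide (adjusted p = 0.0853 and 0.098), and with the length trend removed the sgMiat-96 value was -1.55 (adjusted p = 0.0631).

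**Figure D2:**
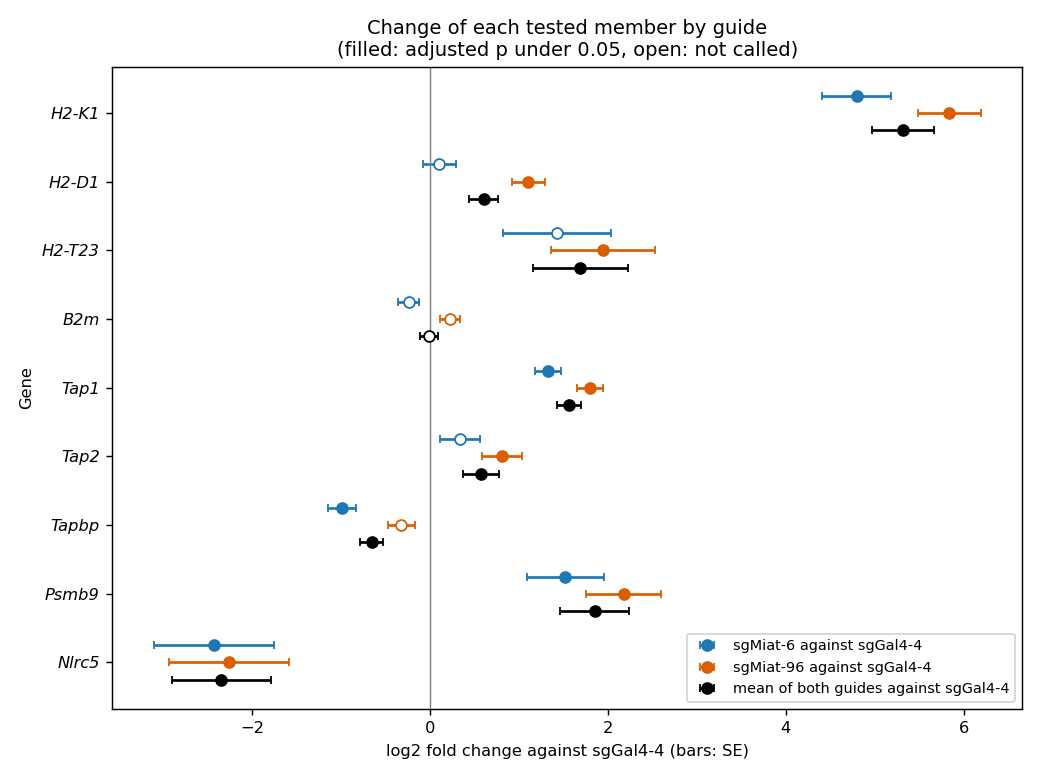
Log2 fold change against sgGal4-4 of the 9 tested genes, with 1 point for each guide and 1 for the mean of both; bars are standard errors and filled points have an adjusted p under 0.05. H2-K1 lies between 4.79 and 5.84, Tap1 and Psmb9 are filled throughout, and Tapbp and Nlrc5 lie to the left of 0.

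The guides did not give the same result. With sgMiat-6, 5 of the 9 tested genes were called, 3 higher and 2 lower, against 53.0% of all tested genes (26.9% higher and 26.1% lower). With sgMiat-96 it was 7, 6 higher and 1 lower, against 68.2% (34.0% higher and 34.2% lower). Both comparisons share the control libraries. H2-K1, Tap1, Psmb9 and Nlrc5 were called with each guide. H2-D1, H2-T23 and Tap2 were called with sgMiat-96 and Tapbp with sgMiat-6, which does not by itself show a difference between the guides.

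Tested against each other, sgMiat-96 was higher than sgMiat-6 for 5 of the 9 genes and lower for 0, where 36.7% of all tested genes were called (17.8% higher and 18.8% lower). The log2 differences were 1.04 ± 0.21 for H2-K1 (adjusted p = 0.00344), 1.00 ± 0.18 for H2-D1 (adjusted p = 0.00192), 0.66 ± 0.16 for Tapbp (adjusted p = 0.00669), 0.47 ± 0.14 for Tap1 (adjusted p = 0.0164) and 0.46 ± 0.12 for B2m (adjusted p = 0.00863, edgeR's quasi-likelihood test, Benjamini-Hochberg). The 2 libraries of each guide did not overlap for these genes, which also held for 69.8% of all tested genes. The values of Tap2 (0.47 ± 0.22), H2-T23 (0.52 ± 0.50), Psmb9 (0.66 ± 0.36) and Nlrc5 (0.17 ± 0.93) did not pass. This count rested on single libraries: it was 2 without sgMiat-6 replicate 1 and 1 without sgMiat-96 replicate 1, where 2253 and 1124 of all tested genes were called in place of 4850. H2-D1 kept its call in all 15 alternatives. The B2m difference was 0.03 (adjusted p = 0.794) with the length trend removed.

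Levels were compared between genes per length, in the authors' deposited TPM. In the controls B2m was the highest at a mean of 445 TPM, followed by Tapbp (15.5), H2-D1 (5.91), Tap1 (4.86), Tap2 (3.31), Psmb9 (1.48), H2-T23 (0.481), Nlrc5 (0.188) and H2-K1 (0.144), and Psmb8 was listed at 0. Neighbours in this order did not overlap between libraries. With sgMiat-6 the order was B2m (324 TPM), Tap1 (10.5), Tapbp (6.71), H2-D1 (5.46), Psmb9 (3.66), H2-K1 (3.58), Tap2 (3.58), H2-T23 (1.11), Psmb8 (0.135) and Nlrc5 (0.0294), where Psmb9, H2-K1 and Tap2 overlapped. With sgMiat-96 it was B2m (358 TPM), Tap1 (11.7), H2-D1 (8.78), Tapbp (8.57), H2-K1 (5.92), Psmb9 (4.58), Tap2 (4.03), H2-T23 (1.28), Psmb8 (0.235) and Nlrc5 (0.0264), where H2-D1 overlapped Tapbp, H2-K1 overlapped Psmb9, and Psmb9 overlapped Tap2. H2-K1 thus moved from the ninth place to the sixth and the fifth, and Tap1 from the fourth to the second.

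**Figure D3:**
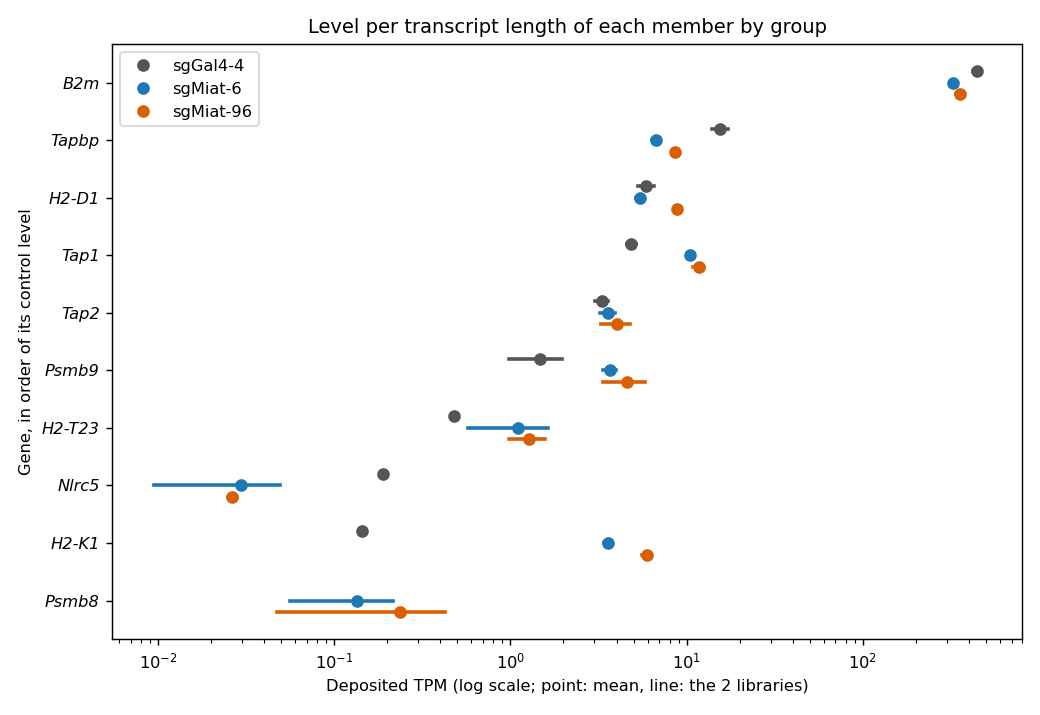
Deposited TPM of each gene by group on a log axis, with the mean as a point and the range of the 2 libraries as a line; Psmb8 at 0 in the controls is not drawn. B2m lies above 300 TPM in every group, while H2-K1 moves from 0.144 to 3.58 and 5.92 TPM.

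The genes most like 4 of the members over the 6 libraries were sought among 10577 genes whose mean was 5 CPM or more, by Euclidean distance of centred log2(CPM + 1). For H2-K1 they were P4htm (distance 0.226), Kcnmb4os1 (0.34) and Gm715 (0.447). P4htm had 0.464 and 0.557 CPM in the controls, 6.25 and 6.18 CPM with sgMiat-6 and 13.7 and 9.41 CPM with sgMiat-96, the same order of groups as H2-K1. For Tap1 they were Errfi1 (0.143), B4galnt1 (0.16) and Ctnnbip1 (0.18), and for B2m Mgst1 (0.108), Smim8 (0.114) and Bet1l (0.117). For Nlrc5 they were Twf1, Wipf2 and Nr2c1, but Nlrc5 lies near 0, where the pseudocount of 1 flattens its pattern.

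Other class I heavy chains and class I-like genes moved in both directions. Of 32 listed, 31 were in the files, 10 were at 0 in every library and 12 could be tested, of which 8 rose, 3 fell and 1 was not called with both guides, beside the 66.5% called among all tested genes. H2-T9 and H2-T22, which had identical counts in every library, are counted separately among those that rose. The median log2 fold change of the 12 tested genes, with both of these counted, was 0.91, against 0.00 over all tested genes. H2-Q4, a nonclassical heavy chain, had 0 counts in both controls, 142 and 152 with sgMiat-6 and 137 and 135 with sgMiat-96, at least 96.5-fold and at least 101-fold higher when the controls are put at 3 counts in all. Like H2-K1 it was near absent in the controls, and the guides differed by a log2 value of 0.07 ± 0.20 (adjusted p = 0.824, edgeR, Benjamini-Hochberg). The stress ligand gene Raet1d, which encodes a ligand of the natural killer cell receptor NKG2D, had 2 and 5 counts in the controls, 495 and 530 with sgMiat-6 and 140 and 130 with sgMiat-96. It rose by a log2 fold change of 7.12 ± 0.29 (adjusted p = 7.77e-10) and of 5.38 ± 0.33 (adjusted p = 2.56e-08, edgeR, Benjamini-Hochberg), and sgMiat-96 was lower than sgMiat-6 by 1.75 ± 0.17 on that scale (adjusted p = 0.000165), the reverse order of H2-K1. Hfe, a class I-like regulator of iron uptake, rose from 0.361 and 0.304 CPM to between 3.26 and 4.39 CPM (log2 fold change 3.54 ± 0.35 with both guides, adjusted p = 1.42e-06). Mr1, which presents vitamin B metabolites, fell from 46.4 and 49.0 CPM to between 8.15 and 9.82 CPM (-2.41 ± 0.11, adjusted p = 1.56e-09).

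A further 6 of this list are given for reasons seen in their values. H2-T22 and H2-T9 had the same counts in every library, from 307 to 678, and cannot be told apart; both rose with both guides (0.96 ± 0.13, adjusted p = 2.49e-05). H2-L had 6.44 and 4.81 CPM in the controls, 5.90 and 5.72 CPM with sgMiat-6, and 11.6 and 10.4 CPM with sgMiat-96, close to the pattern of H2-D1. How far H2-L and H2-D1 share reads was not tested, so H2-L cannot be taken as a separate gene with this pattern. Of all stretches of 50 bases, 24.3% in H2-Q4 and 44.7% in H2-T22 also stood in a transcript of another gene. H2-T24 fell from 3.19 and 3.39 CPM to 1.59 and 0.612 CPM with sgMiat-6 and to 0 and 0.115 CPM with sgMiat-96, a log2 fold change of -3.64 ± 0.48 with both guides (adjusted p = 2.16e-05). Ulbp1, another NKG2D ligand gene, had 74.0 and 76.8 CPM in the controls, 84.4 and 35.9 CPM with sgMiat-6, and 7.53 and 12.8 CPM with sgMiat-96, so that the sgMiat-6 libraries lay on either side of the controls. It fell with sgMiat-96 (-2.89 ± 0.33, adjusted p = 5.64e-06), and its sgMiat-6 value was -0.32 ± 0.29 (adjusted p = 0.361, edgeR, Benjamini-Hochberg). Cd1d1, which presents lipids, rose from 17.7 and 18.6 CPM to between 30.9 and 34.6 CPM (0.86 ± 0.11, adjusted p = 2.23e-05).

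**Figure D4:**
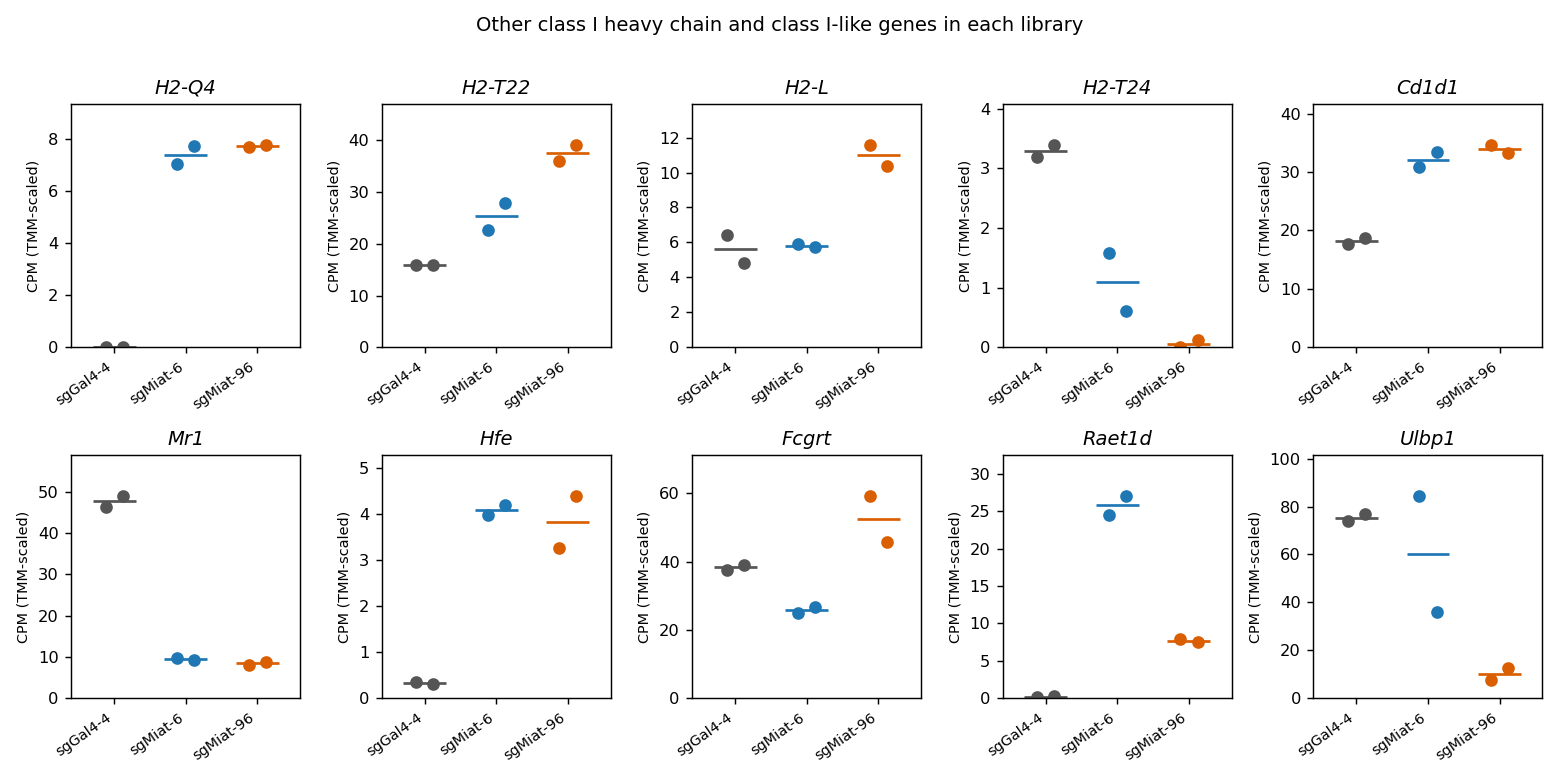
TMM-scaled CPM of 10 other class I heavy chain and class I-like genes in each library, with group means as bars and the axis starting at 0. H2-Q4 was at 0 in both controls and between 7.04 and 7.79 CPM in the Miat libraries, while Mr1 lay at 46.4 and 49.0 CPM in the controls and below 10 CPM in the rest.

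Of 14 tested genes that load and trim peptides, 5 rose, 5 fell and 4 were not called with both guides, a share near the 66.5% called among all tested genes (33.1% higher and 33.4% lower). The median log2 fold change was 0.06. Calr, the chaperone calreticulin of the loading complex, rose from 397 and 408 CPM to between 730 and 792 CPM (0.94 ± 0.09, adjusted p = 9.84e-07). Lnpep, an aminopeptidase used in cross-presentation, fell from 56.4 and 38.7 CPM to 35.9 and 12.6 CPM with sgMiat-6 and to 4.27 and 4.16 CPM with sgMiat-96 (-2.23 ± 0.29 with both guides, adjusted p = 1.9e-05). The peptidase genes Ide (-0.67 ± 0.10, adjusted p = 4.17e-05) and Nrd1 (-0.46 ± 0.09, adjusted p = 0.000576, edgeR, Benjamini-Hochberg) fell as well.

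Proteasome genes related to Psmb8 and Psmb9 were mostly higher. With both guides together, 7 of 9 tested rose, 0 fell and 2 were not called, where 33.1% of all tested genes were called higher, and the median was 0.62. With sgMiat-96 alone, 7 rose and 1 fell, Psme4, which encodes a proteasome activator (-0.35 ± 0.12, adjusted p = 0.015, edgeR, Benjamini-Hochberg), beside 34.0% higher and 34.2% lower among all tested genes. Psme2, a subunit of the interferon-inducible PA28 activator, had 26.2 and 25.6 CPM in the controls, 41.9 and 50.8 CPM with sgMiat-6 and 63.0 and 63.0 CPM with sgMiat-96 (1.06 ± 0.11, adjusted p = 3.61e-06). The constitutive subunit genes Psmb5 (0.62 ± 0.11, adjusted p = 0.000344) and Psmb7 (0.50 ± 0.09, adjusted p = 0.000349) and the assembly factor gene Pomp (0.68 ± 0.11, adjusted p = 0.000102, edgeR, Benjamini-Hochberg) also rose, so that higher values were not limited to the immunoproteasome. With the length trend removed, B2m (858 bases) went from -0.01 to -0.48 and Psmb9 (806 bases) from 1.85 to 1.37 with both guides. Nlrc5 (6945 bases) went from -2.35 to -1.84. Values of this and the other lists are given without that correction. How far the rise of these proteasome genes remains under it is not given here.

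Of 21 tested transcription factors and cofactors known at class I promoters, 5 rose, 6 fell and 10 were not called with both guides, a smaller share of calls than the 66.5% among all tested genes, and the median was 0.00. The acetyltransferase gene Ep300 fell by 1.19 ± 0.12 on the log2 scale (adjusted p = 2.22e-06), the Polycomb gene Suz12 by 0.75 ± 0.11 (adjusted p = 3.6e-05), the CREB family gene Atf1 by 0.68 ± 0.10 (adjusted p = 6.81e-05), and Nfkb2, which encodes a subunit of NF-kappaB, by 0.73 ± 0.11 (adjusted p = 7.89e-05, edgeR, Benjamini-Hochberg).

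Among 13 genes of interferon receptors and their signal, 5 rose, 2 fell and 6 were not called with both guides, beside 66.5% called among all tested genes (33.1% higher and 33.4% lower), with a median of 0.23. Usp18, an interferon-induced inhibitor of the type I receptor, had 0.979 and 0.912 CPM in the controls, 14.98 and 18.9 CPM with sgMiat-6 and 34.2 and 30.9 CPM with sgMiat-96 (4.63 ± 0.21 with both guides, adjusted p = 1.1e-09). Its groups stood in the order of those of H2-K1 and Tap1. The receptor genes Ifngr2 (1.00 ± 0.11, adjusted p = 3.25e-06) and Ifnar2 (0.84 ± 0.12, adjusted p = 5.61e-05) rose, and the kinase gene Jak2 fell by 0.65 ± 0.12 (adjusted p = 0.00025, edgeR, Benjamini-Hochberg).

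Of 30 interferon-induced genes, 14 could be tested and 2 were at 0 in every library. With both guides 5 rose, 7 fell and 2 were not called, beside 66.5% called among all tested genes (33.1% higher and 33.4% lower), and the median log2 fold change was -0.78. The GTPase gene Irgm1 (1.36 ± 0.14, adjusted p = 2.18e-06), Ifi27 (1.15 ± 0.12, adjusted p = 2.33e-06) and the viperin gene Rsad2 (1.47 ± 0.20, adjusted p = 2.49e-05) rose, whereas Ddx58, which encodes the RNA sensor RIG-I, fell by 1.34 ± 0.17 (adjusted p = 1.15e-05, edgeR, Benjamini-Hochberg).

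**Figure D5:**
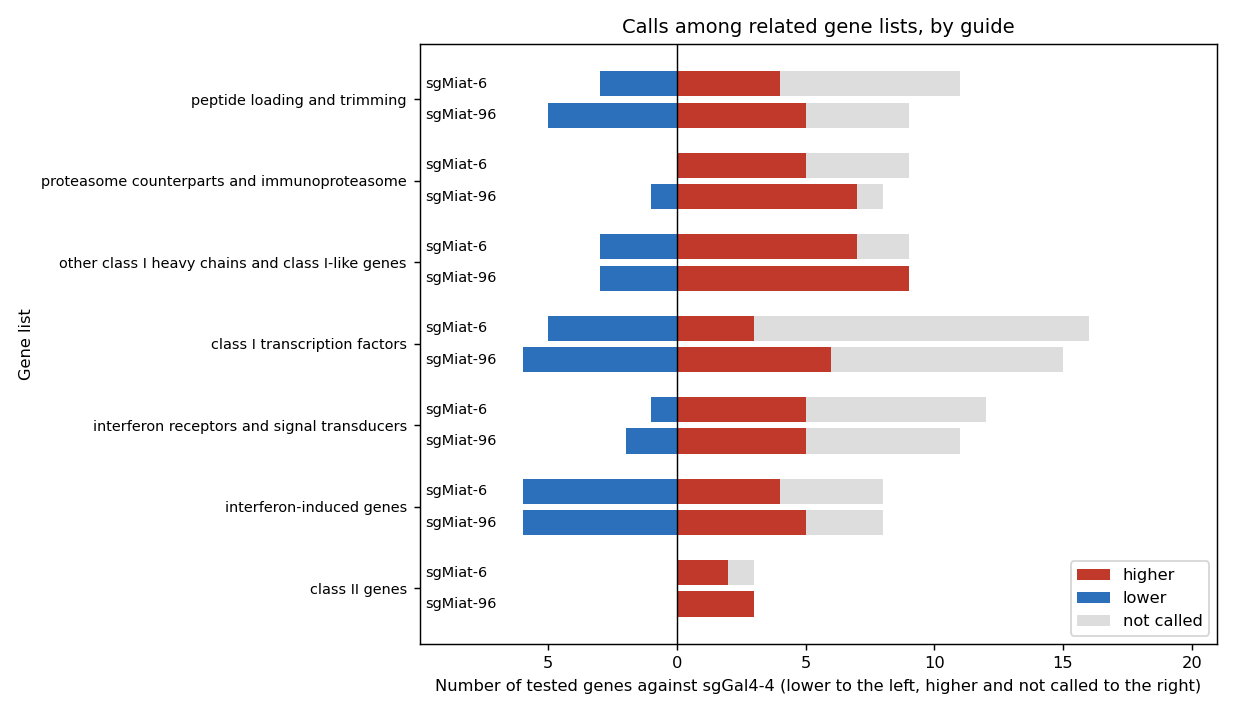
Number of tested genes called higher, called lower or not called against sgGal4-4 in 7 lists of related genes, with 1 bar for each guide; genes called lower run to the left of 0. Of 9 tested proteasome genes, 5 were higher and 0 lower with sgMiat-6, and 7 higher and 1 lower with sgMiat-96. Of 14 tested interferon-induced genes, 4 were higher and 6 lower with sgMiat-6, and 5 higher and 6 lower with sgMiat-96. Among all tested genes, 26.9% were called higher and 26.1% lower with sgMiat-6, and 34.0% higher and 34.2% lower with sgMiat-96.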

How the data were processed

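Libraries were made from 1 µg of total RNA with a kit for mRNA, per the labels' protocols. Per the submitters' processing notes, STAR aligned the reads and the build was GRCm38 (mm10); its version, the counter and the annotation are not given in the sources. Each deposited file gives a whole-number count, an FPKM and a TPM per transcript, per the file headers. Of 33984 transcript rows, the one with the highest total count was kept per symbol, since isoform rows share reads. A count was set to 0 where the deposited FPKM is 0, because in sgMiat-96 replicate 2 all 11223 such rows are listed at 1 count. This departs from the counts as deposited.

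Genes were tested on these counts in R 4.3.3, with limma 3.58.1 and edgeR 4.0.16 (filterByExpr, TMM, quasi-likelihood, a model of 3 groups over 6 libraries with 3 residual degrees of freedom). P-values were Benjamini-Hochberg adjusted over 13220 genes and called at 0.05. CPM are TMM-scaled, and fold changes use a prior count of 0.125. Floors (3 counts) and 95% intervals (Clopper-Pearson) cover counting error only. Replicates differed by more than sampling noise (chi-square per gene 3.98, 18.2 and 13.3, against 1). The alternatives were DESeq2 1.42.0, its size factors, scaling by total counts, no filter, counts as listed, the longest row, a loess length offset (span 0.3), the compared groups only, a replicate block and leaving out each library. On simulated data the fit recovered 59.7% of 1.5-fold, 92.5% of 2-fold and 95.5% of 4-fold changes, with 6 false calls among 171. Far fewer genes were changed there than were called here, and all had the same dispersion. The simulation therefore does not measure the error rate or the scaling in these data. Positions and transcripts are from GENCODE M21, and promoter windows from RefSeq. Tables and plots used Python 3.11.15, pandas 2.3.3, Biopython 1.88, scipy 1.17.1 and matplotlib 3.10.9.

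The 10 genes and the lists were chosen with earlier results of these data known. All 10 are named, with up to 4 called genes of each list by smallest adjusted p and, for 4 members, the 3 genes nearest in pattern. Others were named after their values were seen.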

Additional observations from a re-analysis of the deposited data

Results flagged for a closer look

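The guides differed in 5 of the 9 tested class I genes when sgMiat-96 was tested against sgMiat-6 (edgeR's quasi-likelihood test, Benjamini-Hochberg adjusted p under 0.05). In each of these sgMiat-96 was the higher. Among all tested genes 36.7% were called in this comparison, 17.8% higher and 18.8% lower. The count of 5 rested on single libraries, as given above. The log2 difference was 1.04 for H2-K1, 1.00 for H2-D1, 0.66 for Tapbp, 0.47 for Tap1 and 0.46 for B2m. For B2m it was 0.03 with the length trend removed, and not called. Relative to the controls, H2-K1 and Tap1 were higher with each guide, H2-D1 was called higher with sgMiat-96, and Tapbp was called lower with sgMiat-6. Groups of 2 libraries are too small for a test of outlying samples.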

How the results depend on the processing

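Of 529 values of single genes under 15 settings, 481 kept direction and call, 30 lost the call, 10 gained it and 8 turned. With 1 library left out, the members called numbered 6 to 8 for both guides, 4 to 6 for sgMiat-6, 5 to 8 for sgMiat-96 and 1 to 6 between the guides, where the lowest values were 1 without sgMiat-96 replicate 1 and 2 without sgMiat-6 replicate 1. Values near 0 turned. B2m with both guides ranged from -0.0795 to 0.0655 with 1 library left out, H2-D1 with sgMiat-6 from -0.0401 to 0.265, and, between the guides, H2-T23 from -0.0841 to 1.52 and Nlrc5 from -0.54 to 1.62. With the length trend removed, H2-D1 with sgMiat-6 was -0.0425 and B2m with sgMiat-96 was -0.46. Scaling by total counts shifted the median of all genes by -0.13 with both guides, -0.20 with sgMiat-96 and -0.14 between the guides. It split the calls for both guides into 3583 higher and 5196 lower in place of 4379 and 4415. The labels do not say whether same-numbered libraries belong together. Deviations of same-numbered libraries correlated at 0.01, -0.09 and -0.21. With 2 libraries per group these deviations mirror each other, so that the correlations cannot decide whether the numbers pair the libraries. With the replicate block, 8, 5, 7 and 5 members were called, the same numbers as without it, and 8341, 6444, 8562 and 4043 of all genes. Genes under about 20 counts in all or some libraries, such as Nlrc5, Psmb8, H2-T23 and, in the controls, H2-K1, are limited by depth there. The causes of the shifts between settings were not tested.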

Other observations

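Class II genes, which serve presentation of outside antigens, were mostly absent. Of 12 listed, 5 were at 0 in every library and 3 were tested. H2-Ab1 had 4 and 0 counts in the controls, 32 and 34 with sgMiat-6 and 59 and 35 with sgMiat-96, a ratio of counts of 16.2 (95% counting interval 6.05 to 61.4) and 26.2 (9.9 to 98.1). It rose with both guides (log2 fold change 4.28 ± 0.63, adjusted p = 5.31e-05), as did H2-Eb1, which had 1 and 0, 11 and 8, and 12 and 8 counts (adjusted p = 0.00208, edgeR's quasi-likelihood test, Benjamini-Hochberg). The partner chain gene H2-Aa had 0 counts in all 6 libraries, and Cd74, the invariant chain gene, had 0 and 2 counts in the controls and at most 1 in a Miat library. Ciita, the class II transactivator, had 2 and 1 counts in the controls, 7 and 10 with sgMiat-6 and 4 and 9 with sgMiat-96, too few to be tested.

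Raet1e, an NKG2D ligand gene beside Raet1d in the family, had 1 and 1 counts in the controls, 67 and 42 with sgMiat-6 and 17 and 6 with sgMiat-96. The ratio of counts was 53.7 (14.5 to 449) and 12.8 (3.17 to 112). As for Raet1d, the sgMiat-6 libraries were the highest. Whether Raet1d and Raet1e share reads was not tested.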
